A study of Mus musculus with 5 samples.

Results

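To see how tumors given BMN on the PAZA carrier differed from tumors given PAZA by itself, the gene values of the low-dose BMN/PAZA library were set against those of the PAZA library. The members were the genes listed above 0 in either library, without those whose value for the same library differed from the constant ratio between tables by more than 0.5%. This left 23533 of 23909 genes. The 376 genes left out could not be read from 1 number, since 351 had a second PAZA value and 224 a second low-dose value off the constant, 199 of them both. The kept genes nearest the limit, Ugt2a2 and Tnfaip2, were off by 0.419% (low-dose value) and 0.443% (PAZA value), and the nearest left out, Car4 and Gm21985, by 0.508% and 0.558%. Of the kept genes, 12787 could be checked in both other tables, 7494 in 1 and 3252 in neither.

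Lewis lung carcinoma (LLC) is a mouse lung tumor line that is grown under the skin of C57BL/6 mice. BMN is the PARP inhibitor talazoparib (BMN-673), and PAZA is a polymer that carries azacytidine and forms the nanoparticle in which BMN was loaded. The low-dose library came from the BMN/PAZA group labelled low dose, for which the study's text gives 0.25 mg/kg of BMN and of azacytidine; the PAZA library came from the group given PAZA without BMN. The labels give no dose for PAZA alone, and a legend in the study's supplement names the same azacytidine dose for it. The other groups were Control, BMN alone and a high-dose BMN/PAZA, each with 1 library. The mice were female and 4 to 6 weeks old when bought. The methods describe tumors collected the day after treatment ended, whereas the labels describe LLC cells kept in culture. The values hold leukocyte, endothelial, collagen and muscle genes beside the tumor genes, among them Ptprc, the CD45 gene, at 23.7 FPKM in PAZA and 15.1 in the low-dose library. No group was replicated, so no test was run, and every ratio below compares 2 libraries, not 2 treatments.

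PARP1 and PARP2 bind broken DNA and build chains of ADP-ribose that draw in repair proteins. Talazoparib blocks their activity and holds them on the DNA, which cells then repair mainly by homologous recombination. Azacytidine is built into RNA and DNA and traps DNA methyltransferases, so that methylation is lost as cells divide, and germline and interferon genes are known to be released by such drugs.

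The values were read as FPKM, the fragments of a gene divided by its length and by the total of its library. They also hold a scaling particular to each table, since the low-dose values here were 0.293 times those beside the high dose. How that scaling was made is not known. Ratios are given on the log2 scale after 1 was added to both values. Of the 23533 genes, 466 (1.98%) were at least 2-fold higher in the low-dose library and 499 (2.12%) at least 2-fold lower. The median log2 ratio was 0.058, and 13862 genes (58.9%) were above 0. Counts in the gene lists below stand beside these shares of all kept genes. Among the 11372 genes with a mean of at least 1 FPKM, 276 (2.43%) were higher and 362 (3.18%) lower by 2-fold. Of these stronger genes 46.9% were above 0 and the median was -0.027, so they leaned slightly the other way. In the plot of both libraries most genes lie between the 2-fold lines, and all 17 skeletal muscle and all 8 kept MHC class II genes lie below the line of equal values.

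**Figure D1:**
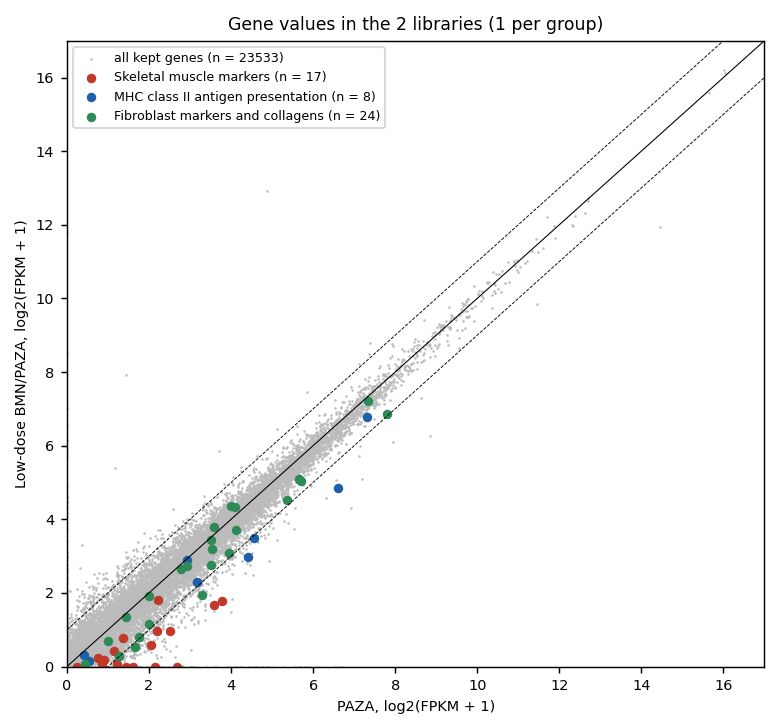
Values of 23533 genes in PAZA (x axis) and low-dose BMN/PAZA (y axis), both as log2(FPKM + 1), with 1 point per gene and 1 library per group. The solid line marks equal values and the dashed lines 2-fold, and all 17 skeletal muscle genes and all 8 kept MHC class II genes lie below the solid line.

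The libraries differed in how many weak genes they list. Of all genes in the table, 5586 (23.4%) were listed at 0 in PAZA and above 0 in the low-dose library, where their median was 0.154 FPKM, and 1751 (7.32%) were listed at 0 only in the low-dose library. Protein-coding genes made up 42.2% and 37.3% of these genes, against 78.6% of the genes above 0 in both. The most frequent ratio between weakly expressed genes was 1.01, so 1 fragment weighed about the same in both libraries. Of the genes past 2-fold, 255 of the 466 higher were at 0 in PAZA and 201 of the 499 lower at 0 in the low-dose library, and small RNAs made up 34 (7.30%) of the 466 and 53 (10.6%) of the 499, against 0.722% of all kept genes. Read counts are not in the files, so the depth is unknown and no counting interval could be given.

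This difference also bears on the choice of scaling. When both columns were brought to the same upper quartile of the values above 0, the low-dose values were multiplied by 1.38, the median of all genes moved from 0.058 to 0.26, and 1214 genes were higher and 336 lower by 2-fold. When the upper quartile was taken over the genes above 0 in both libraries, the factor was 1.01 and the counts were 474 and 494. Of the 46 gene lists, 36 had a median below 0 as deposited, and 9 of those stayed below 0 with the factor of 1.38: skeletal muscle, MHC class II, fibroblast, complement, T cell, B cell, endothelial, adipocyte and epidermis genes. The other lists described as lower turned above 0 under that scaling, and all 10 lists above 0 stayed so.

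Skeletal muscle genes stood lowest of the 46 lists. All 17 were lower in the low-dose library, 10 of them by at least 2-fold, 4 of which were listed at 0 there, and the list's median log2 ratio was -1.24, or -2.30 with 0.1 added in place of 1. Their summed level was 58.1 FPKM in PAZA and 10.96 in the low-dose library. Mylpf, the regulatory light chain of fast muscle myosin, had 12.8 and 2.46 FPKM, a log2 ratio of -2.00. Tnnt3, a fast troponin T, had 11.03 and 2.17 FPKM, and Ttn, the giant spring protein of the sarcomere, had 4.75 and 0.95. Tnnc2, Mb (myoglobin), Myl1, Ckm and Pvalb had between 0.183 and 5.39 FPKM in PAZA and were listed at 0 in the low-dose library. Neb and Acta1, the thin filament genes nebulin and skeletal actin, had ratios of -1.45 and -1.24. In bulk tissue fewer cells of a type and less RNA per cell cannot be told apart.

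The libraries without PAZA differed in the same list by more. Brought to the same scale through the libraries that tables share, the sum was 13.0 FPKM in Control and 143 in BMN, and all 17 genes were higher in BMN than in Control, with a median log2 ratio of 2.20. The low-dose library was therefore near Control, and PAZA lay between Control and BMN. Mylpf had 1.17 FPKM in Control and 13.0 in BMN. How much muscle each tumor sample held was not tested. Here and below, no gene was left out for being off the constant that brought BMN to scale. Of 22137 genes compared, 416 had a low-dose value off that constant, and how many of these were kept was not counted. BMN values are thus less checked than the others.

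The promoter of Mylpf is shown because it carries the E-box letters bound by MyoD-type muscle factors. Mylpf lies on chr7:127208890-127214298 of GRCm38 on the plus strand. The window from RefSeq (GRCm38.p6, chr7:127211358-127211657) holds 250 bases before and 50 after the start site, and the capitals mark CAGCTG, a palindrome that reads alike on both strands.
Mylpf: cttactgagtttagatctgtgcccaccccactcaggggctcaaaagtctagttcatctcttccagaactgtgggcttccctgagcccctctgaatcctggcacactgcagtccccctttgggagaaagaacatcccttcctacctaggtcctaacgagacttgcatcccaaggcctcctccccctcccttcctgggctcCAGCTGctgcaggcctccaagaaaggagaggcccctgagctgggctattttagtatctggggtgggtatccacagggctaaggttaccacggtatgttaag
CAGCTG was found in 9 of the 16 promoter windows that the 13 matched muscle genes have, and in 16.3% of all 32851 windows. A match only says that these letters are in the window.

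Fibroblast and collagen genes were lower as well, with 21 of 24 below PAZA and a median log2 ratio of -0.40, or -0.12 with upper-quartile scaling and -0.62 with 0.1 added. Lum and Fap, a matrix proteoglycan and the fibroblast activation protease, passed 2-fold, from 8.82 to 2.87 FPKM and from 2.17 to 0.443. Col3a1, a fibrillar collagen, had 220 FPKM in PAZA and 116 in the low-dose library. Postn (periostin) had 40.4 and 22.2, and Lox, which cross-links collagen, had 14.4 and 7.49. Col6a1, Col6a3 and Col5a1 were the 3 higher genes, with ratios of 0.22 to 0.36. The sum over the list was 662 FPKM in PAZA, 465 in the low-dose library, 445 in Control and 869 in BMN, and all 24 genes were higher in BMN than in Control. As for muscle, low dose was close to Control and PAZA lay between Control and BMN.

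Endothelial, fat, epidermis and matrix protease lists also had medians below 0, with 1 or 2 genes lower by 2-fold in each. Of all kept genes 2.12% were lower by 2-fold, so nothing is read from counts this small. Of 20 endothelial genes 15 were lower, with a median of -0.24 (-0.13 with upper-quartile scaling and -0.67 with 0.1 added in place of 1), among them Egfl7 (17.3 and 8.06 FPKM), Pecam1 (14.1 and 8.49) and Emcn (12.7 and 7.68), while Sox17, Eng and Plvap were higher. Of 15 pericyte and smooth muscle genes 8 were lower and the median was -0.02 (0.28 with upper-quartile scaling), yet Acta2, smooth muscle actin, had 5.92 FPKM in PAZA and 1.32 in the low-dose library. Fabp4, a fatty acid carrier of fat and vessel cells, had 60.6 and 28.7 FPKM and led the adipocyte list, of which 7 of 10 genes were lower (median -0.25, or -0.13 and -0.89 in the same settings). Adipoq, a defining fat marker, was 0.386 FPKM in PAZA and listed at 0 in the low-dose library. Of 18 epidermis genes 13 were lower (median -0.21, or -0.07 and -0.58), and Krt5, the basal keratin, had 1.35 FPKM in PAZA and was listed at 0 in the low-dose library. Matrix proteases and their inhibitors had a median of -0.18 (0.27 with upper-quartile scaling), with Timp3 (11.03 and 4.51 FPKM) and Timp1 (110 and 64.6) lower and Mmp10 (4.99 and 8.89) higher. The list of 6 nerve and Schwann cell genes had the median farthest above 0, 0.23, but only Pmp22 had a mean of at least 1 FPKM, and it was lower (-0.42).

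**Figure D2:**
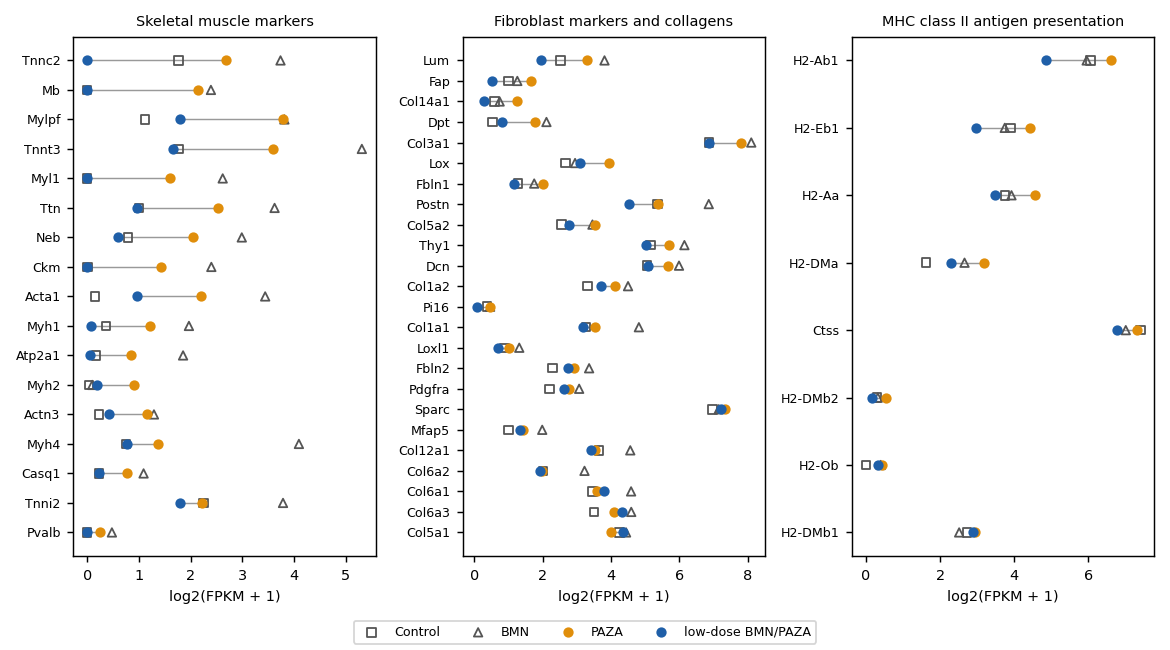
Values of the 17 skeletal muscle, 24 fibroblast and 8 kept MHC class II genes as log2(FPKM + 1) on the x axis, with 1 mark per library: squares for Control, triangles for BMN, orange for PAZA and blue for low-dose BMN/PAZA, joined by a line. The blue mark lies left of the orange mark for all 17 muscle and all 8 MHC class II genes and for 21 of 24 fibroblast genes, and Control and BMN values were brought to scale through shared libraries.

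The kept genes of MHC class II, which presents peptides from outside the cell to CD4+ T cells, were lower in the low-dose library. All 8 kept genes were below PAZA, 3 of them by at least 2-fold, and the median log2 ratio was -0.71 (-0.42 with upper-quartile scaling and -1.08 with 0.1 added). H2-Ab1, the beta chain of I-A at chr17:34257689-34269419, had 95.9 FPKM in PAZA and 27.9 in the low-dose library. H2-Eb1, the beta chain of I-E, had 20.3 and 6.87 FPKM, and H2-Aa, the alpha chain of I-A, had 22.7 and 10.2. H2-DMa and Ctss, which load peptides and trim the invariant chain, had ratios of -0.88 and -0.54, whereas H2-DMb1 was almost equal (6.604 and 6.38 FPKM). Control had 65.3 FPKM of H2-Ab1 and BMN 60.8, so PAZA was the highest and the low-dose library the lowest of the 4. Cd74, Ciita and Ifi30 were off a constant between tables. As deposited all of them were higher in the low-dose library, with Cd74 at 13.5 and 49.3 FPKM, Ifi30 at 34.8 and 59.6 and Ciita at 0.400 and 0.491. With the values of the other tables the list's median was -0.54, and as deposited -0.39.

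The promoters of H2-Aa and H2-Eb1 are shown because class II promoters share a Y box, an inverted CCAAT, which reads ATTGG or, on the other strand, CCAAT. Both windows are from RefSeq (GRCm38.p6) and hold 250 bases before and 50 after the start site, H2-Aa at chr17:34287774-34288073 on the minus strand and H2-Eb1 at chr17:34305617-34305916 on the plus strand. Capitals mark each match.
H2-Aa: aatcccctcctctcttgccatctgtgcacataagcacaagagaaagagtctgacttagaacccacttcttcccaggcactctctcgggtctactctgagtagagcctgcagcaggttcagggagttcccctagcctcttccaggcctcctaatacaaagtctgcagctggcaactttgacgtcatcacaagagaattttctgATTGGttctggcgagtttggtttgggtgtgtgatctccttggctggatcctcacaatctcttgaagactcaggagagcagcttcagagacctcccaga
H2-Eb1: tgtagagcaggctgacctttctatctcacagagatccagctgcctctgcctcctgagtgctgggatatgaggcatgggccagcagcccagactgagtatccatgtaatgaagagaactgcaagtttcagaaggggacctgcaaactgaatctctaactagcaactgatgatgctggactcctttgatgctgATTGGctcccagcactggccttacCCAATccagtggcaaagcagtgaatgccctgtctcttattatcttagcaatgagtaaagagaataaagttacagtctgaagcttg
H2-Aa had 1 match and H2-Eb1 had 2. The letters were found in 7 of the 10 windows that 9 matched genes of the list have, and in 37.4% of all 32851 windows. H2-Ab1 had no entry in the table of windows.

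Pan-leukocyte, macrophage and dendritic cell lists had medians nearer 0 than MHC class II genes, and the pan-leukocyte median was the lowest of these. Of 8 pan-leukocyte genes 6 were lower, with a median of -0.34 and sums of 219 and 172 FPKM, although this median was 0.12 with upper-quartile scaling. Ptprc had a ratio of -0.62 and Itgb2, the beta-2 integrin chain, had 22.03 and 13.5 FPKM. Of 19 macrophage and monocyte genes 12 were lower (median -0.16, or 0.26 with upper-quartile scaling), and the summed level was 4087 and 3511 FPKM. Lyz2, lysozyme, had 518 and 403 FPKM and Trem2 had 7.59 and 4.28, while the scavenger receptor gene Cd163 had 1.11 and 2.31. Dendritic cell genes were split, with 7 of 12 higher, near the 58.9% of all kept genes. Their median was 0.047, or 0.27 over the 5 genes with a mean of at least 1 FPKM and 0.24 with 0.1 added. Clec10a had 4.84 and 2.73 FPKM, Fscn1 had 5.59 and 9.83, and Clec9a and Siglech were listed at 0 in the low-dose library.

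T cell genes were weak in both libraries, and 14 of 20 were lower, with a median of -0.23 and sums of 29.4 and 19.5 FPKM. The size of the median depended on the choices, with -0.67 over the 7 genes with a mean of at least 1 FPKM, -0.76 with 0.1 added and -0.13 with upper-quartile scaling. Trac, the constant region of the T cell receptor alpha chain, had 5.25 FPKM in PAZA and 0.189 in the low-dose library, a ratio of -2.39. Lck, the kinase at the receptor, had 2.64 and 0.715, and Cd3g had 3.02 and 1.36. Cd3d and Cd8b1 were listed at 0 in the low-dose library, whereas Cd3e (1.35 and 1.24 FPKM) and Trbc2 (3.01 and 2.49) were close and Cd28 was higher (6.48 and 8.17). The T cell markers thus ranged from far lower to higher. In Control the list summed to 34.5 FPKM and in BMN to 17.3, so the low-dose library stood near BMN.

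Cytotoxic and B cell genes were few and weak. Of 11 kept NK and cytotoxic genes 6 were lower (median -0.05, or 0.14 with upper-quartile scaling), and the sign depended on the choices, with 0.43 over the 4 genes with a mean of at least 1 FPKM and 0.16 with the left-out genes kept as deposited. Prf1, perforin, had 1.43 and 0.505 FPKM, Gzmb, granzyme B, had 4.98 and 3.44, and Fasl had 1.21 FPKM in PAZA and was listed at 0 in the low-dose library, while Klrd1 had 3.69 and 5.85. Klrk1 and Gzma were off a constant. Of 8 B and plasma cell genes 5 were lower (median -0.31, or -0.96 with 0.1 added), the sums were 4.31 and 1.33 FPKM, Igkc (2.36 FPKM in PAZA) was listed at 0 in the low-dose library, and the defining marker Ms4a1 was not above 0 in either. Neutrophil genes had a median of -0.24 (0.046 with upper-quartile scaling), with S100a8 at 39.6 and 27.1 FPKM and S100a9 at 27.5 and 37.3. Of 10 mast cell genes 6 were above 0, beside 58.9% of all kept genes, with a median of 0.14, and of -0.07 over the 4 with a mean of at least 1 FPKM. Fcer1a, a chain of the IgE receptor, had 0.218 and 1.32 FPKM. The erythroid and platelet list had a median of 0.20, or 0.0068 over the 3 genes with a mean of at least 1 FPKM and 0.57 with upper-quartile scaling. Of that list Hba-a1 and Itga2b were listed at 0 in PAZA and had 1.77 and 1.66 FPKM in the low-dose library.

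Chemokine and checkpoint genes gave a mixed picture. Of 25 chemokine genes and receptors 19 were lower, with a median of -0.24 that became 0.046 with upper-quartile scaling. Ccl11, which draws eosinophils, had 3.77 and 0.953 FPKM, and Cxcl12 had 5.61 and 1.77, both past 2-fold. Ccl22, Ccl8 and Ccr7 were higher, with ratios of 0.43 to 0.59. Of 21 checkpoint genes 14 were lower and the median was -0.01, or 0.16 with upper-quartile scaling: Cd80 had 2.60 and 1.07 FPKM and Ctla4 had 2.12 and 0.825, while Vsir (10.6 and 17.02), Havcr2 (9.01 and 12.9) and Cd47, the do-not-eat-me signal (81.3 and 105), were higher. Cd274, the gene of PD-L1, was off a constant and is not compared. Of 26 inflammatory cytokine genes 6 were off a constant, Il1b, Il6, Il33 and Ptgs2 among them. The median was -0.12 over the 20 kept genes, 0.30 with upper-quartile scaling and 0.056 over all 26 as deposited, with Tgfb1 lower (10.7 and 6.24 FPKM) and Nos2, the inducible nitric oxide synthase, higher (8.002 and 12.5). Complement genes were lower in 11 of 15 (median -0.37, or -0.04 with upper-quartile scaling), among them C3 (13.2 and 7.12) and C1qb (53.2 and 36.9).

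Interferon genes were the list most reduced by the rule, since 29 of 41 were off a constant, Isg15, Ifit1 and Irf7 among them. Of the 12 kept genes 10 were lower, with a median of -0.34. Iigp1, an interferon-induced GTPase, had 29.0 FPKM in PAZA and 11.1 in the low-dose library. Gbp2, a guanylate-binding protein, had 36.8 and 26.6, and Oasl1 was the clearest exception with 1.91 and 3.90. The direction depended on the choices: the median was 0.022 with upper-quartile scaling, 0.22 over all 41 genes as deposited and -0.11 over all 41 with the values of the other tables. The median log2 ratio of BMN to Control over the 12 genes was -1.04.

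The same split was seen for the genes around them. As deposited, the 376 genes left out had a median log2 ratio of 0.22, with 267 higher and 31 past 2-fold, and with the values of the other tables the median was -0.08, with 144 higher and 4 past 2-fold. Cytosolic nucleic acid sensing lost 14 of 23 genes, Tbk1 and Irf3 included. Of the 9 kept genes 5 were higher (median 0.10), beside 58.9% of all kept genes. Tmem173, the gene of STING, had 6.99 and 9.42 FPKM and Cgas had 2.53 and 2.03. Over all listed genes the median was 0.24 as deposited and -0.24 with the values of the other tables, so its sign rests on which table is read. MHC class I lost 9 of 23 genes, B2m and Tap1 included, and the 14 kept genes were split 6 to 8 (median -0.07, or 0.38 with upper-quartile scaling, and 0.097 over all listed genes as deposited): H2-K1 had 610 and 515 FPKM, H2-D1 had 223 and 226, and H2-M3 had 8.37 and 11.1.

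**Figure D3:**
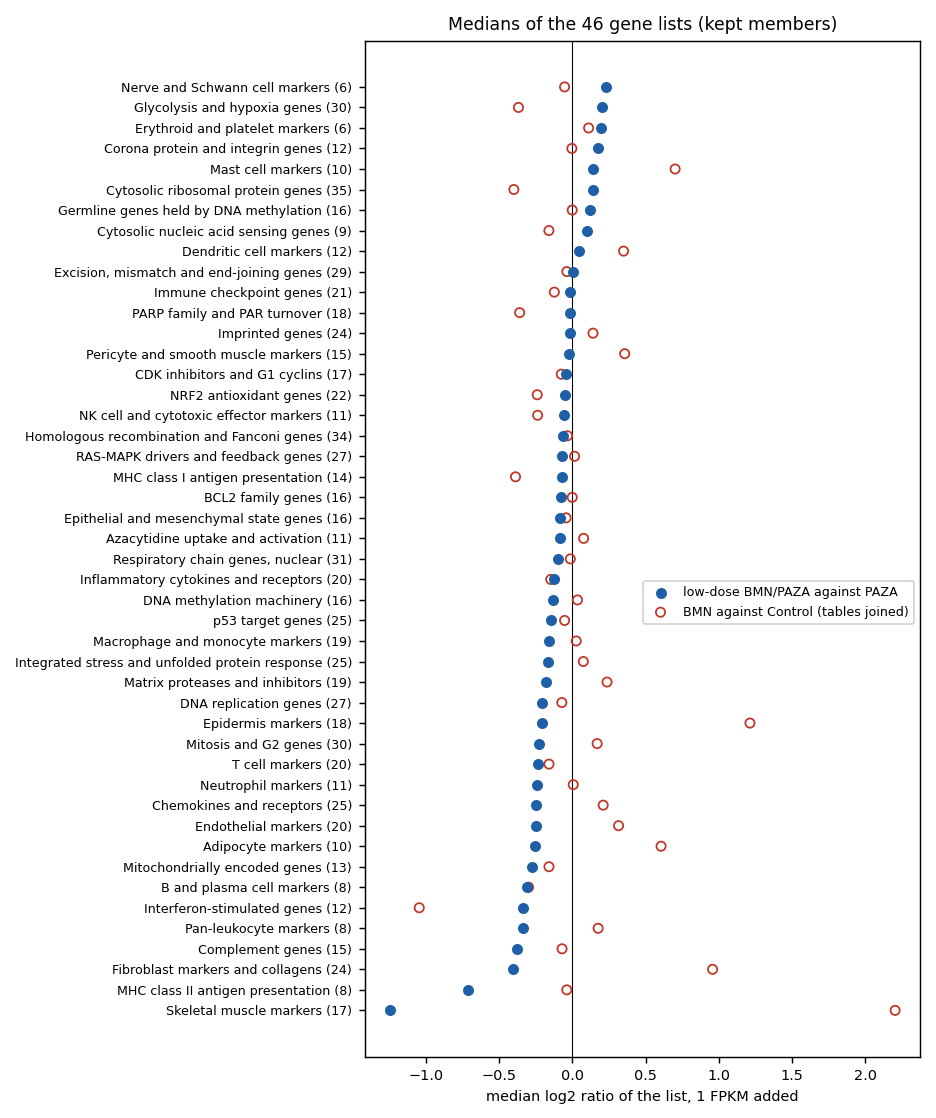
Median log2 ratio (x axis, 1 FPKM added) of the kept members of 46 gene lists, with the number of members in brackets, for low-dose BMN/PAZA against PAZA (filled) and BMN against Control (open, brought to scale through shared libraries). Filled points run from -1.24 for skeletal muscle to 0.23 for nerve genes, and 27 of the 36 filled points below 0 turned above 0 with upper-quartile scaling.

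Talazoparib's targets Parp1 and Parp2 were expressed in both libraries. Parp1 had 17.96 FPKM in PAZA and 13.9 in the low-dose library, and Parp2, at chr14:50807841-50821301, had 13.4 and 7.25, a ratio of -0.80. Oard1 and Parg, which remove ADP-ribose, were also lower (30.8 and 16.1, 25.6 and 17.2), while Parp16, Tnks and Macrod2 were higher. Over the 18 kept genes the median was -0.02 (0.44 with upper-quartile scaling), 8 were higher and none passed 2-fold. Control had 22.8 FPKM of Parp2 and BMN 9.39, so BMN and low-dose BMN/PAZA had lower values than Control and PAZA. The high-dose library was not read here.

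Among genes of DNA methylation 10 of 16 were lower (median -0.13) and none passed 2-fold. Dnmt1, the maintenance methyltransferase, had 56.9 and 44.0 FPKM, against 85.9 in Control and 74.7 in BMN. Uhrf1, which guides Dnmt1 to hemimethylated DNA, had 51.6 and 39.6, and Dnmt3a, a methyltransferase of unmethylated sites, had 5.66 and 3.95. Dnmt3b was under 0.1 FPKM in both, and Tdg, the thymine DNA glycosylase, was higher (17.1 and 21.6). Of 14 genes that take up and activate azacytidine 3 were off a constant, Cda, Rrm2b and Samhd1. The 11 kept had a median of -0.08, or -0.27 over the 8 with a mean of at least 1 FPKM. Over all listed genes it was -0.15 with the values of the other tables. Dck, deoxycytidine kinase, had 9.51 and 7.36 FPKM, Rrm2, a ribonucleotide reductase subunit, had 78.5 and 47.0, and Uck1, a uridine-cytidine kinase, had 3.60 and 5.27. The medians of these 2 lists were 0.23 and 0.25 with upper-quartile scaling.

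Of 16 germline genes that methylation normally keeps silent 10 were above 0, a share near the 58.9% of all kept genes, and the median was 0.12. Only 5 had a mean of at least 1 FPKM (median 0.25), and 6 were listed at 0 in PAZA and 3 in the low-dose library. The gene past 2-fold, Asz1 of the piRNA pathway at chr6:18050964-18109061, had 1.08 FPKM in the low-dose library and was listed at 0 in PAZA. Tdrd9, a helicase of the same pathway, had 0.987 and 2.91 FPKM, and Piwil4 had 0.888 and 2.24. Tdrd9 was 1.86 in Control and 0.951 in BMN, and Piwil4 was 1.73 and 0.745, so the low-dose library was the highest of the 4 for both. The paper reports a DNA methylation gene set as lower with BMN/PAZA than with BMN, with Tdrd9 and Piwil4 among its core genes. The values given here for these genes run the other way, and why was not tested. Rhox5, an X-linked homeobox gene, was already high in all 4 libraries (between 798 and 921 FPKM). Imprinted genes were split 11 to 13 with a median of -0.02 (0.18 with upper-quartile scaling), but Cdkn1c had 4.74 and 0.338 FPKM and H19 had 3.90 and 0.189, both past 2-fold, and Meg3 had 0.118 and 0.811. Control had 0.432 FPKM of Cdkn1c and 0 of H19.

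Genes of homologous recombination and the Fanconi pathway lay on both sides. Of 34 kept genes 15 were higher and 19 lower, and the median was -0.06 (0.31 with upper-quartile scaling). Fancm, the helicase that opens the Fanconi response at stalled forks, had 6.77 and 1.66 FPKM, and Brca1 had 16.9 and 9.55. Brca2 was higher (4.64 and 7.78), as were Exo1 (11.2 and 18.6), Fancl (3.25 and 7.21) and Fancc (0.514 and 2.04), so 1 gene passed 2-fold in each direction. Of the list, 2 genes were off a constant, Rad52 among them. Of 41 excision, mismatch and end-joining genes 12 were off a constant. Among the 29 kept 15 were higher (median 0.0053) and none passed 2-fold. The median's sign depended on the choices, with 0.26 under upper-quartile scaling and -0.16 both at a mean of at least 1 FPKM and with low-dose values from the table shared with BMN. Xrcc1, the scaffold of single-strand break repair, had 4.35 and 2.20 FPKM, and Ung had 0.345 and 1.22.

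Among p53 targets 18 of 25 were lower, with a median of -0.15 (0.25 with upper-quartile scaling) and none past 2-fold. Mdm2 had 31.9 and 22.3 FPKM, Bax had 15.9 and 12.1, Bbc3 had 1.20 and 0.395, and Gadd45g and Zmat3 were higher. Cdkn1a, the p21 gene, was off a constant. The BCL2 family, which overlaps this list in Bax and Bbc3, had a median of -0.08 (0.24 with that scaling), with Bcl2a1b at 34.5 and 17.2 FPKM and Bcl2 at 3.66 and 4.88.

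Cell-cycle genes were lower by a modest amount. Of 30 mitosis and G2 genes 25 were lower, with a median of -0.23 that was 0.21 with upper-quartile scaling. Ttk, a spindle checkpoint kinase, had 8.96 and 3.20 FPKM, Plk1 had 14.8 and 8.44, Cdk1 had 212 and 151, and Mki67 was close (56.6 and 52.6). Aurkb and Cenpa were higher, with 14.6 and 21.97 and 10.1 and 15.2 FPKM. Of 27 kept replication genes 21 were lower (median -0.20, or 0.23 with upper-quartile scaling), among them Gins2 (15.2 and 6.51) and cyclin E1, Ccne1 (24.9 and 11.5), both past 2-fold, and Rfc1 was higher (21.1 and 28.1). In the list of CDK inhibitors and G1 cyclins 1 gene, Cdkn2c of p18, was past 2-fold higher (1.56 and 4.30 FPKM) and 2, Cdkn1c and Ccne1, past 2-fold lower, and the list's median was -0.04 (0.41 with upper-quartile scaling). Against Control, BMN had 26 of the 30 mitosis genes higher.

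**Figure D4:**
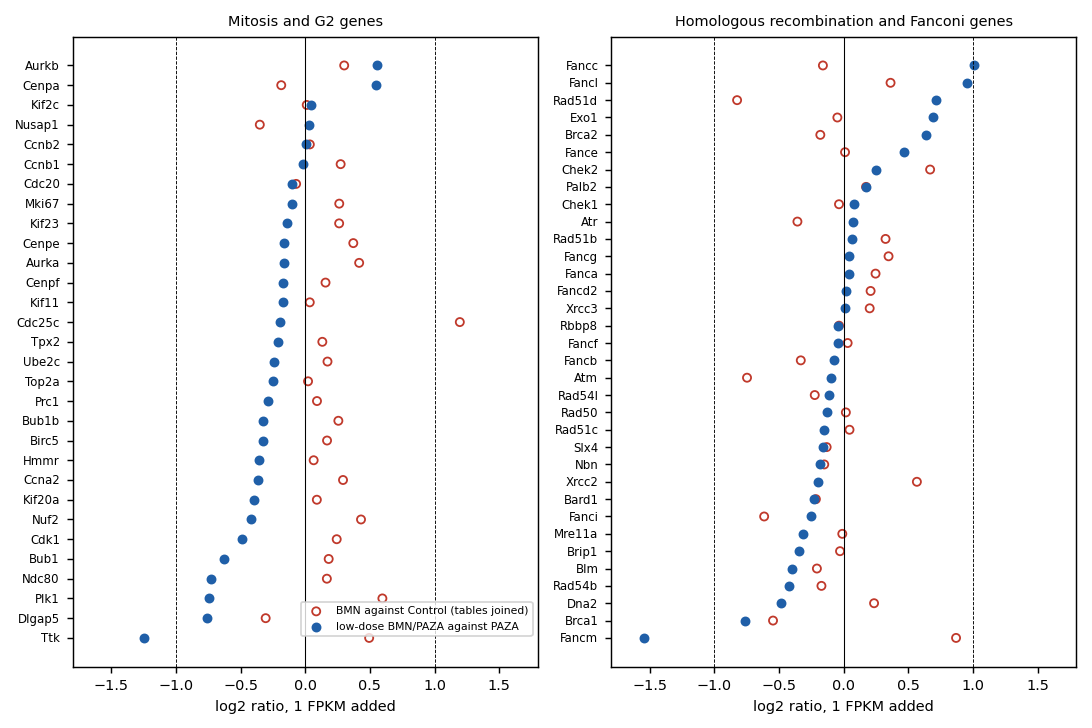
Log2 ratios (x axis, 1 FPKM added) of 30 mitosis and G2 genes and 34 homologous recombination and Fanconi genes for low-dose BMN/PAZA against PAZA (filled) and BMN against Control (open, brought to scale through shared libraries); dashed lines mark 2-fold. Mitosis genes lie left of 0 in 25 of 30 cases, with a median of 0.21 in place of -0.23 under upper-quartile scaling, and repair genes fall on both sides, with a median of 0.31 in place of -0.06.

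In the 6 lists of basic metabolism and stress no gene passed 2-fold. Cytosolic ribosomal protein genes were higher in 28 of 35, beside 58.9% of all kept genes and 46.9% at a mean of at least 1 FPKM. Their median was 0.14 (0.60 with upper-quartile scaling), and Rpl27 had 197 and 287 FPKM and Rpl23 had 1751 and 1406. Glycolysis and hypoxia genes were higher in 22 of 30 (median 0.20, or 0.63 with that scaling): Slc2a1, the glucose transporter, had 26.8 and 35.5 FPKM, Pfkl, the liver type phosphofructokinase, had 19.5 and 27.0, and Ankrd37, a hypoxia gene, had 6.32 and 12.7. In BMN against Control the ribosomal list had a median of -0.40 and the glycolysis list -0.37. The 13 mitochondrially encoded genes had a median of -0.28 (0.19 with upper-quartile scaling), with mt-Nd1 at 5146 and 4027 FPKM, and the nuclear respiratory chain genes -0.09 (0.36). Genes of the integrated stress and unfolded protein response had a median of -0.16 (0.25), with Ddit3, the CHOP gene, at 9.20 and 4.20 FPKM and Psat1 at 84.2 and 49.3. NRF2 antioxidant genes had a median of -0.05 (0.35), and Abcc1 (5.81 and 10.9) and Gsta4 (22.7 and 37.7) had the highest ratios among those with at least 1 FPKM.

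Fibronectin, integrin, clathrin and caveolin genes formed a list of their own, since proteins around the nanoparticle, their receptors and routes into the cell were examined in the study. Fn1, fibronectin, had 535 FPKM in PAZA and 631 in the low-dose library, and Itga5, its integrin receptor chain at chr15:103344286-103366763, had 2.22 and 4.36. Cav1, the caveolin gene, had 243 and 348 FPKM, and Cltb, a clathrin light chain, was lower (8.45 and 4.98). Over the 12 genes 9 were higher, beside 58.9% of all kept genes, and none passed 2-fold. The median was 0.18, or 0.58 with upper-quartile scaling. Control had 3.81 FPKM of Itga5 and 451 of Cav1, so for both PAZA was the lowest of the 4 libraries. RAS-MAPK genes, which carry growth signals from the cell surface, had a median of -0.07 (0.31 with upper-quartile scaling), with Mapk3 higher (11.1 and 14.99) and Etv4 lower (15.6 and 9.92). Epithelial and mesenchymal genes had a median of -0.08 (0.20), with Prrx1 lower (8.46 and 4.57) and Ocln higher (3.10 and 4.74).

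The most extreme single genes were taken from the 6793 genes with at least 5 FPKM in the higher library and above 0 in both, 15 in each direction. Mfsd10, a membrane transporter gene at chr5:34633642-34637212, had 40.8 FPKM in the low-dose library and 1.26 in PAZA, a ratio of 4.21, against 4.71 in Control and 1.13 in BMN. The other 14 had ratios between 1.35 and 1.67. Among them were S1pr2, a sphingosine 1-phosphate receptor (1.34 and 5.64 FPKM), Rhog, a small GTPase (1.57 and 5.63), Ptpa, an activator of phosphatase 2A (3.46 and 10.8), Rps6ka1, a kinase downstream of ERK (1.69 and 5.88), and Zbtb20, a zinc finger repressor (2.23 and 8.13). Dcaf11 and Zbtb20 were lowest in BMN or PAZA and near the low-dose value in Control, while in 13 of the 15 the low-dose value was outside the range of the other 3 libraries, as it was in 51.7% of all 6793 genes. The choice by ratio favors this, and nothing is read from the count. Afmid, Mroh1, C77080 and Dcaf11 overlap a coding gene in GENCODE M21, so their values may hold reads of a neighbor. St5, Vaultrc5, Prss23, Tatdn3 and Prrg1 complete the list.

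At the other end, 12 of the 15 genes had a PAZA value outside the range of the other 3 libraries, against 48.8% of all 6793 genes, with the same reservation. Saa3, an acute-phase protein, had 15.2 FPKM in PAZA, 2.60 in the low-dose library, 3.69 in Control and 4.75 in BMN. Csn3, kappa-casein, had 29.4, 6.35, 4.26 and 6.38 in the same order, and Bmp4, a growth factor whose locus overlaps the predicted gene Gm15217, had 6.31, 1.09, 0 and 1.23. For these 3 genes PAZA was the library that stood apart. Per1, a clock gene, had 8.19 FPKM in PAZA and 1.35 in the low-dose library, below 5.61 in Control and 4.21 in BMN, and Tmem47 had 7.12 and 1.38. Snora28 and Snord21 are small nucleolar RNAs inside Eif5 and Rpl5, and Tmsb15b2 overlaps Tmsb15b1 and Tmsb15l, so the reads of these genes cannot be separated with certainty. Trac, Mylpf and Tnnt3 of the lists above, and Lyrm9, Commd4, Dmac2l and Spsb1, were the others.

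**Figure D5:**
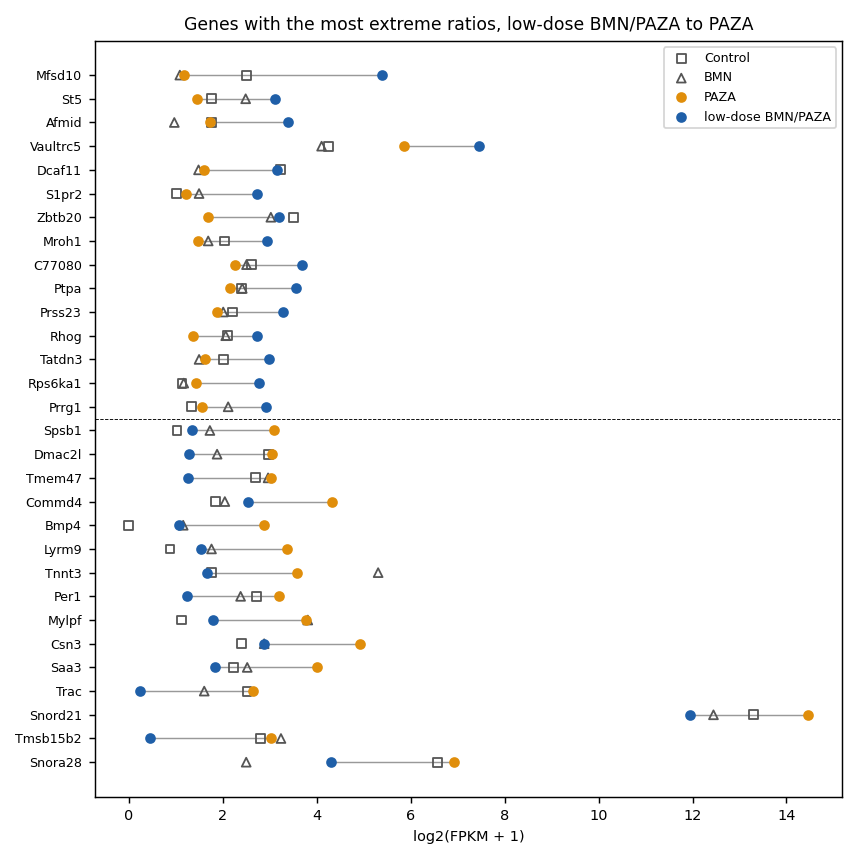
Values of the 15 genes with the highest (upper block) and the 15 with the lowest ratio of low-dose BMN/PAZA to PAZA as log2(FPKM + 1) on the x axis, with 1 mark per library: squares for Control, triangles for BMN, orange for PAZA and blue for low-dose BMN/PAZA. In the upper block the blue mark is outside the other 3 in 13 of 15 genes (51.7% of all 6793), and in the lower block the orange mark is outside the other 3 in 12 of 15 (48.8%), with Control and BMN brought to scale through shared libraries.

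Predicted genes were left out of that list by its rule, and 3 of them were singled out after their values were seen. Gm10800, at chr2:98666547-98667301, had 7783 FPKM in the low-dose library, 28.3 in PAZA, 20.6 in Control and 37.5 in BMN. Its neighbor Gm10801, at chr2:98662237-98664083, had 243, 1.70, 2.99 and 2.12 in the same order. The low-dose value was the highest of the 4 for both, at 275 and 142 times the PAZA value. Gm21738, at chr14:19415857-19418930, had 92.6 FPKM in the low-dose library and 0.396 in BMN, was listed at 0 in PAZA and has no Control value. Among small RNAs, Snord33 had 3581 FPKM in the low-dose library and was listed at 0 in PAZA, and Snora44 had 100.1 FPKM in PAZA and was listed at 0 in the low-dose library. Both are very short genes, for which division by length gives a high FPKM from few fragments. Where the reads of the predicted genes and small RNAs came from was not tested.

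BMN against Control and low-dose BMN/PAZA against PAZA share no library, and both set BMN against its absence, without and with the carrier. Their scales are not independent, since BMN was scaled through the low-dose values and Control through the PAZA values. A factor on the low-dose values, such as 1.38, would carry over to BMN. Of the 18940 kept genes with a Control value, 324 (1.71%) were higher and 417 (2.2%) lower by 2-fold in BMN. Of the 269 such genes that were higher by 2-fold in the low-dose library, 20 (7.43%) were also higher in BMN and 32 (11.9%) were lower. Of the 499 genes that were lower in the low-dose library, 52 (10.4%) were higher in BMN and 44 (8.82%) were lower. Each of these shares stands beside the 1.71% and 2.2% of all genes with a Control value, and no test was made of the difference. The background is unlike the called genes, since a gene under 1 FPKM in both libraries cannot pass 2-fold with 1 added. No share over genes of like level was taken, so nothing is read from the gap. Another 197 genes that were higher in the low-dose library have no Control value.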

How the data were processed

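RNA was sequenced from 1 library per group. Per the submitters' processing notes the authors used HISAT2, StringTie and GRCm38, with no version given in the sources used here. The authors deposited 5 tables of 2 groups each, with no unit named, and the deposited values were read as FPKM from their form. The table of low-dose BMN/PAZA and PAZA gave the values, 3 others gave the constants between tables (0.293, 1.01 and 0.955) and the Control and BMN values, and the table of BMN and high-dose BMN/PAZA was not used. Genes off the constants of 0.293 or 1.01 were left out, and genes off 0.955, which scaled BMN, were not. No normalization was added; 1 was added before log2 ratios. In the table used for the ratios, 22 symbols had been turned into numbers and stayed unnamed. The members and the 46 gene lists were chosen with earlier results of these data known. Genes were named by rule: the 15 highest and 15 lowest ratios at 5 FPKM or more, without predicted genes, the drug targets, and in each list up to 4 genes at either end with at least 1 FPKM; others named are left-out genes, markers at 0 and genes singled out after their values were seen. No test was possible. The steps were tested on simulated data. Python 3.11.15, numpy 2.4.6, pandas 2.3.3 and matplotlib 3.10.9 were used, with GENCODE M21 for positions and RefSeq for promoters.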

Additional observations from a re-analysis of the deposited data

Results flagged for a closer look

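For 2 lists the median log2 ratio was past 0.3 in size in both pairs and in opposite directions, with the low-dose library below PAZA and BMN above Control. Other lists, such as epidermis, adipocyte and endothelial genes, had medians of the same opposite signs but within 0.3 in the low-dose library. With 0.1 added in place of 1 their low-dose medians were -0.58, -0.89 and -0.67, past 0.3, so the flag depends on the number added. The BMN medians were not recomputed with 0.1 added. Skeletal muscle genes were lower in 17 of 17 in the low-dose library and higher in 17 of 17 in BMN, and the difference of the median log2 ratios was -3.45. Fibroblast and collagen genes were lower in 21 of 24 in the low-dose library and higher in 24 of 24 in BMN, and the difference was -1.36. With upper-quartile scaling the low-dose medians were -1.12 for muscle and -0.12 for fibroblast genes, the latter within 0.3. The BMN medians were not recomputed in that setting, where the same factor would raise the BMN values. With 1 library per group the difference was not tested.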

How the results depend on the processing

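No paired analysis was possible because each group has 1 library. The count of genes higher by 2-fold, 466 as reported, was 4881 with 0.1 added in place of 1, 276 at a mean of at least 1 FPKM, 1214 with upper-quartile scaling, 140 over genes checked in both other tables and 1721 at 1.5-fold. The count of genes lower, 499 as reported, was 2378 with 0.1 added, 226 over genes checked in both other tables and 1519 at 1.5-fold. In settings chosen after seeing the data, genes above 0 in both libraries gave 211 and 298, and scaling to the upper quartile of those genes gave 474 and 494. The median over all genes was 0.26 with upper-quartile scaling. Of the 18 lists with a median past 0.2 in size, 10 kept their sign in every setting and 8 did not. With upper-quartile scaling the median turned to 0.21 for mitosis genes, 0.23 for replication genes, 0.022 for interferon-stimulated genes, 0.046 for chemokine genes, 0.12 for pan-leukocyte markers, 0.046 for neutrophil markers and 0.19 for mitochondrially encoded genes. The scaling factor of 1.38 comes from the larger number of weak genes listed above 0 in the low-dose library, since it was 1.01 over shared genes. The interferon-stimulated median was 0.22 with all genes kept as deposited, and the nerve and Schwann cell median was -0.42 at a mean of at least 1 FPKM, where 1 gene remained. Depth is unknown, so weak genes and genes listed at 0 are the least certain.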
